A study of Mus musculus with 2 samples.

Results

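Of the 696 mouse microRNAs (miRNAs) on a pair of Agilent arrays, 5 are described here: miR-31, its passenger strand miR-31*, miR-135a, its paralog miR-135b, and miR-375, listed in the files as mmu-miR-31, mmu-miR-31*, mmu-miR-135a, mmu-miR-135b and mmu-miR-375. The RNA of ICR mouse embryos at E13.5 came from the 3rd mammary gland (below, the gland) and from what is called the inter mammary gland region, which lies between the 3rd and 4th glands (below, the flank). No treatment, allele or transgene is named for either region, and the number and sex of the embryos behind each RNA sample are not given in the sources used here. Each sample, 100 ng of total RNA carrying the dye Cy3, was hybridized to 1 array with 13920 spots for miRNAs. miR-31, miR-31*, miR-135a and miR-375 were chosen by their measured values in this same comparison, because by their share of spots well above background they were detected in the gland alone, and because they were past 1.5-fold there, and miR-135b was added as the paralog of miR-135a. The differences between the regions are therefore given as a description, and no test was run. Each region has a single array, so every SD below is over spots of 1 array and covers technical spread only.

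A miRNA is cut from a hairpin precursor. The guide strand is usually the more abundant one and represses mRNAs that pair with its seed near the 5′ end, while the passenger strand, marked with a star in the older names used on these arrays, is mostly degraded. miR-31 is known from keratinocytes of the epidermis and hair follicle and from mammary epithelium. miR-135a and miR-135b form one family and are known to repress APC, a negative regulator of Wnt signalling, on which mammary placodes depend. miR-375 is best known from endocrine cells such as those of pancreatic islets and is also found in luminal breast epithelium.

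In the gland all 78 usable spots of miR-31, miR-31*, miR-135a and miR-375 were well above background by the flag of the Feature Extraction software, and in the flank 2 of 77 were. miR-135b was not enriched in this way, with 20 of 20 spots in the gland and 17 of 20 in the flank. A miRNA was called detected when more than 50% of the spots of at least 1 of its probes carried the flag. By this rule 4 of the 5 were detected in the gland alone, against 3.85% (12) of the 312 miRNAs detected on at least 1 array. The choice of these miRNAs set that count, and nothing is read from it. By the software's own call per miRNA, 4 of the 5 were detected in both regions, against 46.4% (323) of all 696, and miR-31* in the gland alone. In bulk tissue, fewer cells of a type and less RNA per cell cannot be told apart.

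**Figure D1:**
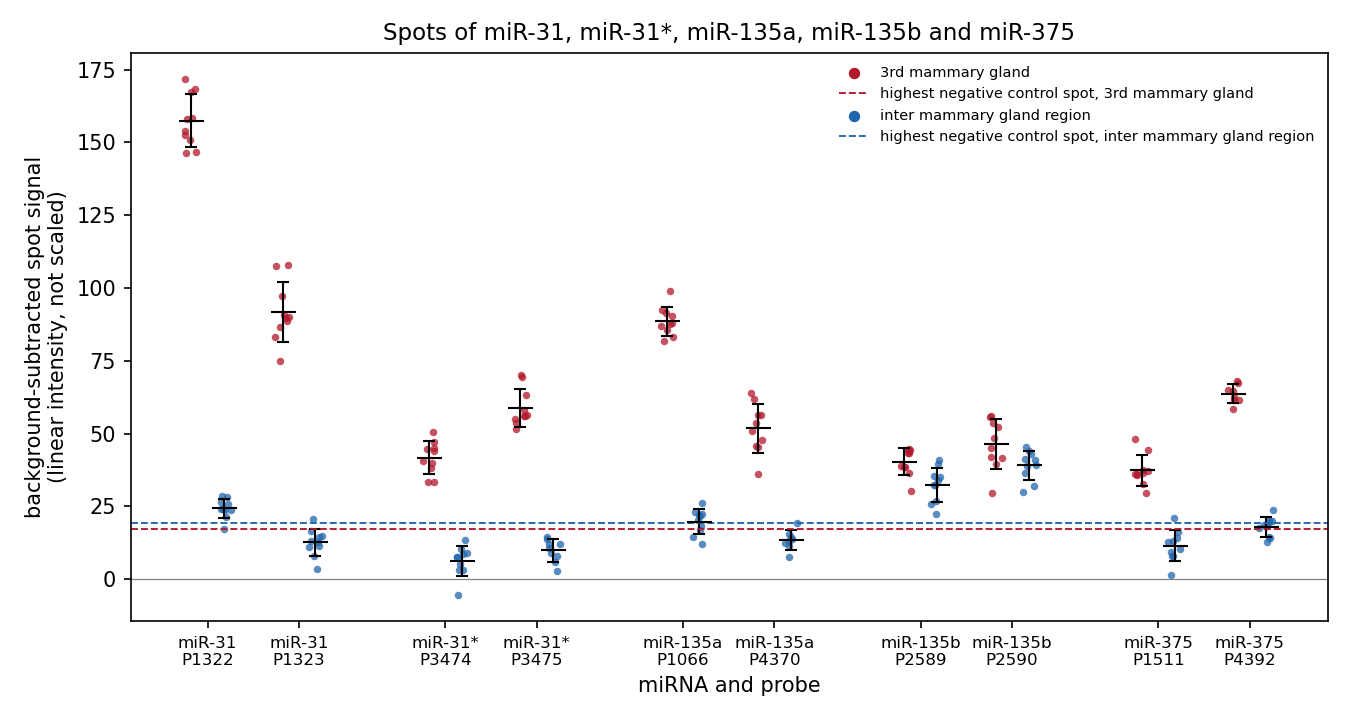
Background-subtracted signal of each spot (vertical axis, linear intensity before scaling between arrays) for the 10 probes of the 5 miRNAs (horizontal axis), with the 3rd mammary gland in red and the inter mammary gland region in blue. Points are spots with outliers left out, bars and whiskers are the mean and SD over spots, and dashed lines mark the highest negative control spot of each array (17.3 and 19.2). The colours are separate for the 8 probes of miR-31, miR-31*, miR-135a and miR-375 and overlap for both probes of miR-135b.

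miR-31, the guide strand of its hairpin, was read like each of the 5 by 2 probes of 10 spots. Values are background-subtracted signals before scaling, given as the lowest, the median and the highest spot. With probe A_54_P1322 they were 146.5, 156.0 and 171.8 in the gland and 17.1, 24.2 and 28.6 in the flank, with means of 157 ± 9.08 and 24.3 ± 3.38 (SD over 10 spots each). With probe A_54_P1323 they were 74.9, 89.7 and 108.0 in the gland and 3.43, 12.9 and 20.8 in the flank, with means of 91.6 ± 10.3 and 12.6 ± 4.72 (SD over 10 spots each). On both probes the dimmest spot of the gland was well clear of the brightest spot of the flank.

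miR-31*, the passenger strand of the same hairpin, differed in the same direction. Probe A_54_P3474 gave 33.3, 42.2 and 50.4 in the gland and -5.58, 7.58 and 13.3 in the flank, with means of 41.7 ± 5.66 and 6.19 ± 5.20 (SD over 10 spots each). Probe A_54_P3475 gave 51.4, 56.2 and 70.1 in the gland and 2.77, 10.6 and 14.4 in the flank, with means of 58.9 ± 6.47 (SD over 10 spots) and 9.83 ± 3.83 (SD over 9 spots, 1 outlier left out). The regions did not overlap on either probe, and no flank spot was brighter than every negative control spot of its array. Probes bind with different strength, so the signals of the strands are not compared as amounts of RNA.

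miR-135a, a guide strand made from 2 genes, was also separate between the regions. Probe A_54_P1066 gave 81.9, 87.7 and 98.9 in the gland and 12.2, 20.9 and 26.2 in the flank, with means of 88.6 ± 4.97 and 19.7 ± 4.24 (SD over 10 spots each). Probe A_54_P4370 gave 36.1, 52.3 and 63.9 in the gland and 7.72, 13.4 and 19.2 in the flank, with means of 51.8 ± 8.44 (SD over 10 spots) and 13.4 ± 3.31 (SD over 8 spots, 2 outliers left out). No spot of the flank reached the dimmest spot of the gland on either probe.

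miR-135b, of the same family, differed little. Probe A_54_P2589 gave 30.3, 41.1 and 44.8 in the gland and 22.5, 33.3 and 40.7 in the flank, with means of 40.3 ± 4.64 and 32.4 ± 5.89 (SD over 10 spots each). Probe A_54_P2590 gave 29.5, 46.9 and 56.0 in the gland and 29.8, 40.0 and 45.5 in the flank, with means of 46.4 ± 8.45 and 39.1 ± 5.08 (SD over 10 spots each). The regions overlapped on both probes. miR-135b was detected in both regions, and on each array all 20 spots were brighter than every negative control spot.

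miR-375 was detected in the gland alone by the rule on spots well above background. Probe A_54_P1511 gave 29.6, 36.3 and 48.0 in the gland and 1.53, 11.5 and 20.9 in the flank, with means of 37.3 ± 5.29 and 11.4 ± 5.32 (SD over 10 spots each). Probe A_54_P4392 gave 58.3, 63.6 and 68.1 in the gland and 12.6, 18.3 and 23.7 in the flank, with means of 63.7 ± 3.29 (SD over 8 spots, 2 outliers left out) and 17.9 ± 3.36 (SD over 10 spots). The regions were separate on both probes.

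For a fold, signals were scaled between the arrays by dividing by the 75th percentile of probes that both arrays detected, 786.4 for the gland and 718.5 for the flank, and were averaged over the probes of the miRNA. Where only the gland array detected a miRNA, the fold is a lower bound, taken against its own flank signal or against the dimmest detected probe of the flank array (27.1 before scaling), whichever was higher. The means over probes in the flank were 18.5 (miR-31), 8.01 (miR-31*), 16.6 (miR-135a) and 14.6 (miR-375), so the dimmest detected probe was the divisor for each. miR-31, with a mean of 124.5 in the gland, was at least 4.20-fold higher there (SD over spots 0.231). miR-135a, with a mean of 70.2, was at least 2.37-fold higher (SD 0.165). Of the 4 bounds past the threshold, those of the remaining pair were the lowest. miR-375, with a mean of 50.5, was at least 1.71-fold higher (SD 0.105). miR-31*, with a mean of 50.3, was at least 1.70-fold higher (SD 0.145). miR-135b had means of 43.3 and 35.7 and a ratio of 1.11 (SD 0.172), which differs from 1 by less than this spread, while the ratios of 1.20 to 1.24 under the other scalings differ from 1 by more than it. Thus 4 of the 5 passed 1.5-fold higher, against 3.21% (10) of the 312 detected miRNAs, and 0 of the 5 passed 1.5-fold lower, against 9.94% (31). This comparison chose the miRNAs, so nothing is read from these shares either. The rest of the 10 were detected on both arrays, and the highest of them was miR-2141, with a ratio of 1.95.

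The next of the miRNAs that the gland array alone detected was miR-598, below the threshold, at least 1.20-fold higher with means of 35.5 and 22.9. It was followed by miR-194, at least 1.08-fold higher with means of 31.8 and 20.01, and by miR-132, which has means of 28.6 and 18.5 and no fold because its bound fell under 1. No miRNAs are ranked by likeness to miR-31 or miR-135a, because lower bounds have no exact distance from other folds.

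Single probes differed in the size of the fold but not in its direction. For miR-31 the bound was 5.32 with A_54_P1322 and 3.09 with A_54_P1323. For miR-135a it was 2.99 with A_54_P1066 and 1.75 with A_54_P4370. miR-31* and miR-375 each had 1 probe under 1.5-fold. The bounds of miR-31* were 1.41 with A_54_P3474 and 1.99 with A_54_P3475, and those of miR-375 were 1.26 with A_54_P1511 and 2.15 with A_54_P4392. For miR-135b the ratios were 1.14 and 1.09. After scaling, 8 of the 10 probes had every gland spot above every flank spot, against 19.2% (119) of the 620 probes detected on at least 1 array, and the exceptions were those of miR-135b. The rule used this contrast, so nothing is read from the share.

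Both arrays have the same layout, so spots were also compared position by position, scaled to the signal of the flank array. The gland spot was the brighter one at 20 of 20 positions for miR-31, with differences of 55.8 to 131.3 and a median of 98.4. For miR-31* it was brighter at 19 of 19 positions (21.6 to 61.2, median 36.4), and for miR-135a at 18 of 18 (22.2 to 73.5, median 53.9). For miR-375 it was brighter at 18 of 18 (8.93 to 46.5, median 33.7). These positions were spread widely, for miR-31 over rows 1 to 192 and columns 2 to 78, and for miR-375 over rows 10 to 179 and columns 3 to 82. For miR-135b the gland spot was brighter at 13 of 20 positions, with differences of -7.40 to 19.1 and a median of 1.73. The share over all miRNAs was not computed. miR-31, miR-31*, miR-135a and miR-375 were chosen by this contrast, so nothing is read from their counts.

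The background was higher on the gland array. The local background around miRNA spots had a median of 75 there and 67 on the flank array, and the negative control spots averaged 3.81 ± 5.28 (SD over 432) and 2.23 ± 5.07 (SD over 428). The control means differed by 1.58. Before scaling, the probe means of miR-31, miR-31*, miR-135a and miR-375 differed by 25.9 to 133.1, and those of miR-135b by 7.87 and 7.32. The part of the background in these differences was not tested.

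Signal in the flank was low but mostly not at zero. Feature Extraction has a weaker mark for spots that are positive and significantly brighter than their background, and it was set in the flank for 19 of 20 spots of miR-31, 18 of 18 of miR-135a, 19 of 20 of miR-375 and 14 of 19 of miR-31*. Flank spots brighter than every negative control spot numbered 10 of 20, 7 of 18, 5 of 20 and 0 of 19 in the same order. Most of them were on 1 probe, with 9 of 10 spots of A_54_P1322 for miR-31, 6 of 10 of A_54_P1066 for miR-135a and 4 of 10 of A_54_P4392 for miR-375. In the gland all 78 spots met both criteria. With the weaker mark as the rule for detection, all 5 miRNAs were detected in both regions, against 59.3% (413) of all 696.

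The total signal per miRNA that Feature Extraction computes adds different numbers of probes on the arrays for some of these miRNAs. The total of miR-31 was 164.9 (error 13.2) in the gland, which is the sum of its probe totals of 104.3 and 60.7. In the flank it was 15.7 (error 3.95), the total of A_54_P1322 alone, without the 8.17 of the other probe, and the sum would be 23.9. For miR-135a the totals were 93.0 and 12.8, the latter again from 1 probe, with a sum of 21.5. For miR-375 they were 66.9 and 11.6, with a sum of 19.0. miR-31* was not called detected in the flank by the software and is listed there at the stand-in of 0.1, although its probe totals sum to 10.4, against 66.6 in the gland. Both probes of miR-135b entered its totals of 57.4 and 46.3. After scaling, the quotients of totals for miR-31, miR-135a and miR-375 were 9.12, 6.33 and 5.03, larger than the bounds from spots. The totals of both probes were also summed on each array, which also changes the scaling. These miRNAs then counted as detected in the gland alone, with lower bounds of 6.48, 4.06 and 3.31, each against its own flank signal. For miR-135b, whose unscaled totals are the same both ways, the quotients were 1.08 and 1.16, and the scaling alone thus moves them.

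The mature sequences show which strand and seed each name stands for. Entries of RefSeq (GRCm38.p6) were matched for 3 of the 5 miRNAs, and miR-135b and miR-375 are named only. Sequences run 5′ to 3′ with the seed, bases 2 to 8, in capitals.
miR-31 (miR-31-5p): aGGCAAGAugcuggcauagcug
miR-31* (miR-31-3p): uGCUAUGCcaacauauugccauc
miR-135a (miR-135a-5p): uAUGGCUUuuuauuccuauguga
These 3 seeds differ from each other. G or C made up 12 of 22 bases (54.5%) in miR-31, 10 of 23 (43.5%) in miR-31* and 7 of 23 (30.4%) in miR-135a, where 12 bases are U. How far the probes of miR-135a also bind miR-135b was not tested. The bound of miR-135a was 2.14 times the ratio of miR-135b.

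In the same annotation Mir31 lies on chromosome 4 within the lncRNA gene Gm49890, and its nearest coding genes are the interferon gene Ifne and Mtap. Mature miR-135a comes from Mir135a-1 on chromosome 9, within the spans of Glyctk and the lncRNA gene D030055H07Rik, and from Mir135a-2 on chromosome 10, within no other gene and next to the lncRNA gene Rmst. These sources cannot be told apart on the array. Mir135b and Mir375 are both on chromosome 1, the former within the spans of Lemd1 and the lncRNA gene Gm29695, the latter between Cryba2, a lens crystallin gene, and Cfap65. Only miR-31 and miR-31* share a hairpin. The array design names another assembly, so no coordinates are given.

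One further strand of these hairpins is on the arrays, miR-135a*, and its signal was lower in the gland. It was read by 4 probes of 5 spots, and its name does not say to which miR-135a gene it belongs. With A_54_P3300 the lowest, median and highest spots were 26.7, 38.1 and 45.1 in the gland and 55.5, 61.1 and 68.2 in the flank, without overlap. With A_54_P3299 they were 19.4, 27.4 and 39.4 and 32.1, 36.8 and 38.8, which overlap, and this probe was not detected in the gland, where 2 of 5 spots were well above background. The remaining probes had means between -0.558 and 4.13 on both arrays and were not detected on either. Only A_54_P3300 was thus detected on both arrays, with a quotient of 0.565. The average over all 4 probes, most of which were not detected in the gland, had a quotient of 0.592 (SD over spots 0.114), and 0.592 to 0.661 over the 5 scalings tried.

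Dissected pieces hold several cell types, so miRNAs known from them are given beside the 5. All 10 miRNAs of surface and glandular epithelium were detected in both regions, and 8 were higher in the gland, or 9 under the other scalings, where miR-205 turns from lower to higher. With the main scaling none passed 1.5-fold, with the others 1 to 3 did. The median ratio was 1.31, beside 1.03 over the 284 miRNAs detected on both arrays, and the summed scaled signal was 16.3 in the gland and 15.0 in the flank. Ratios ran from 0.805 for miR-203, a miRNA of differentiating epidermis that was lower under each scaling, to 1.47 for miR-96. miR-200a, of the family that represses the Zeb factors and so keeps cells epithelial, had a ratio of 1.43 (SD over spots 0.0693). miR-205 was the brightest, with signals of 5334 and 4947.

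**Figure D2:**
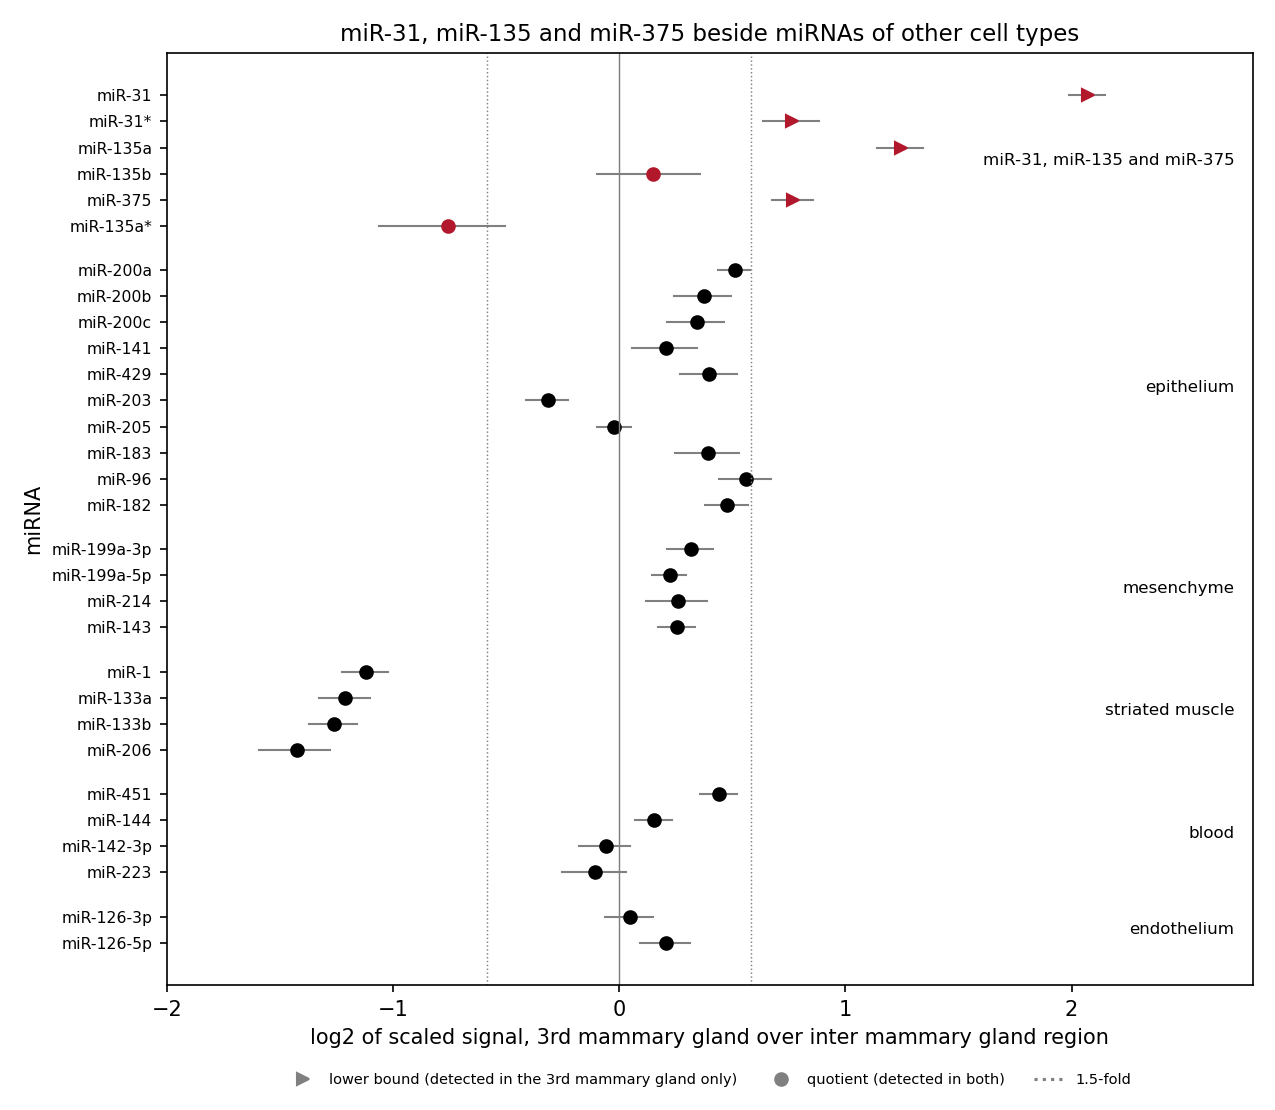
Log2 of the scaled signal in the 3rd mammary gland over that in the inter mammary gland region (horizontal axis) for the 5 miRNAs and miR-135a* (red) and for miRNAs of epithelium, mesenchyme, striated muscle, blood and endothelium detected on both arrays (black). Triangles are lower bounds, circles are ratios, grey lines are 1 SD over spots and dotted lines mark 1.5-fold, all with the main scaling (under others miR-205 and 2 blood miRNAs change sides of 1). The 4 bounds lie right of all black points, of which miR-96 is the highest at a ratio of 1.47. Since these 4 miRNAs were chosen for being past 1.5-fold, nothing is read from their position. The muscle miRNAs lie between ratios of 0.372 and 0.461.

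Of these lists striated muscle differed most, and in the opposite direction. All 4 were past 1.5-fold lower in the gland under each of the 5 scalings, from 2.17-fold for miR-1 to 2.69-fold for miR-206 with the main one, and their summed scaled signal was 2.09 in the gland and 5.02 in the flank, with miR-133b the brightest. Of 5 mesenchymal miRNAs on the arrays, 4 were detected in both regions and were higher in the gland under each scaling, none past 1.5-fold (median ratio 1.20), with a summed signal of 35.4 and 29.0 and miR-199a-3p the brightest. miR-145 of this list was not detected on either array.

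Of 4 miRNAs of blood cells, 2 were higher in the gland, or 4 under the other scalings, and none passed 1.5-fold, or 1 with the percentile over all probes and after quantile normalization. With the main scaling they had a median ratio of 1.04 and a summed signal of 7.84 and 5.95, and miR-451, of red cells, was the brightest. Both endothelial miRNAs were higher under each scaling (median ratio 1.09), with a summed signal of 2.75 and 2.64 and miR-126-3p the brightest. Of 4 miRNAs of the nervous system only miR-128 was detected, at a ratio of 0.675, and miR-124, miR-9 and miR-137 were not detected on either array. The summed signal of all 4 was 0.236 and 0.295. The undetected ones had means of 3.15, 15.6 and 22.6 in the gland and -0.19, 6.92 and 9.73 in the flank, in the order named. The list for endocrine cells holds miR-375 itself. Its brightest miRNA, miR-7a, had signals of 81.7 and 82.6 and a ratio of 0.904, miR-7b was not detected, and the summed signal was 0.182 and 0.144 with miR-375 and 0.117 and 0.123 without it, which turns the direction with the main scaling. The part of these cell types in the values of miR-31, miR-135a and miR-375 was not tested.

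The scaling moved the counts over all miRNAs. Of the calls past 1.5-fold, 24.4% were higher in the gland with the main scaling, 40.4% (19 against 28 lower) with none and 46% (23 against 27) with the percentile over all probes. The median log2 ratio of miRNAs detected on both arrays was 0.05, 0.18 and 0.21. Under the 5 scalings 4 of the 5 miRNAs passed 1.5-fold and miR-135b ran from 1.11 to 1.24. After the normexp background correction with an offset of 50, which draws ratios toward 1, miR-31 alone passed, at least 1.88-fold higher. miR-135a, miR-375 and miR-31* then had bounds of 1.35, 1.21 and 1.18.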

How the data were processed

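The authors hybridized each RNA to a 1-colour Agilent array, both on 1 slide read in 1 scan, and quantified spots with Feature Extraction 10.7.3.1 (per the file headers). The deposited spot intensity is linear, background-subtracted and unscaled between arrays. The deposited table holds exactly the total intensity of the scanner files (no tolerance) for 696 of 696 miRNAs per array, so it is linear and uncentred, with a median of 0.1, the stand-in, in either column. GeneSpring GX is named for normalization without settings.

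Control spots and outliers (1.67% and 2.51% of miRNA spots) were left out. Spots were averaged per probe, then scaled, then averaged per miRNA. The SD of a fold was propagated from the SD over spots, with the divisor of a bound taken as known. Named miRNAs were the 5, their other strands, the next 3 detected in the gland alone, and marker lists. miR-2141 was named as the highest ratio among miRNAs detected on both arrays. A planned ranking by likeness in fold is not given, since the folds are bounds. The 5 miRNAs and the lists were chosen with earlier results of these data known. The steps were tested on simulated data, scored only for miRNAs detected on both arrays, so the lower bounds were not covered. The number of arrays limits precision, and no test was run.

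Alternatives concerned scaling, signal column, background correction (normexp on median pixel signals, as the column planned is not in the files), detection, outliers, probes, floor, threshold and dim miRNAs. Python 3.11.15, numpy 2.4.6, pandas 2.3.3, matplotlib 3.10.9, R 4.3.3 and limma 3.58.1 were used.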

Additional observations from a re-analysis of the deposited data

How the results depend on the processing

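No paired analysis was possible because a single array was hybridized for either tissue. Detection by positive and significant spots was chosen after the data were examined, as were, for single folds but not for counts, the software's own call and the lowest detected miRNA as floor. miR-135b moved by less than its spread over spots under all 16 alternatives (1.04 to 1.24). The other folds stayed above 1 under each alternative that gave a value, but moved in size. A lower bound under 1 is given no value, so no printed bound could fall below 1. The only values missing are those of miR-31* with total signals and with the deposited table. Values are given in the order miR-31, miR-31*, miR-135a and miR-375, against 4.20, 1.70, 2.37 and 1.71. They were 4.60, 1.86, 2.59 and 1.87 with no scaling, 4.69, 1.90, 2.65 and 1.90 with the percentile over all probes, 4.56, 1.84, 2.57 and 1.85 with the median of probes detected on both arrays, and 4.68, 1.87, 2.61 and 1.90 after quantile normalization. They were 6.48, 3.57, 4.06 and 3.31 with probe totals, 1.88, 1.18, 1.35 and 1.21 after normexp, 5.32, 1.99, 2.99 and 2.15 with the brightest probe, 5.98, 5.56, 3.75 and 3.06 with positive and significant spots, and 6.16, 4.98, 3.87 and 3.15 with the lowest detected miRNA as floor. The values with positive and significant spots are ratios, because these miRNAs were then detected in both regions. The rest of this list are lower bounds as defined above. With probe totals and with the lowest detected miRNA as floor, the divisor of miR-31, miR-135a and miR-375 was their own flank signal. For miR-31* it was the floor. The ratio of miR-31* has a divisor near background, with 0 of 19 flank spots brighter than every negative control spot. With the total signals, and equally with the deposited table, miR-31, miR-135a and miR-375 gave 9.12, 6.33 and 5.03, and miR-31* no value, because its divisor is the stand-in. With the software's call these 3 were detected in both regions. Their divisor was then their own flank signal instead of the floor, and the ratios were 6.16, 3.87 and 3.15. With the median of the spots miR-31 gave 3.89 and miR-375 1.58. Leaving out 1 probe in turn gave 3.09 and 5.32 for miR-31, 1.41 and 1.99 for miR-31*, 1.75 and 2.99 for miR-135a and 1.26 and 2.15 for miR-375.

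Of the 5 miRNAs, 4 were past 1.5-fold higher in the main setting, and 3 with total signals and with the deposited table, where miR-31* has no value. The count was 1 after normexp, 2 (miR-31 and miR-135a) where detection asked for all spots of a probe and 2 at a 2-fold threshold. The 2-fold threshold lowers such counts by construction. The offset of normexp draws ratios toward 1, but that setting also changed the signal column, and their parts were not separated. Over all miRNAs the 10 higher calls became 19 with no scaling and with the median, 23 with the percentile over all probes, 18 after quantile normalization, with total signals and with the deposited table, 17 with probe totals, 3 after normexp, 6 where detection asked for all spots, 2 at 2-fold, 4 with dim miRNAs left out and 47 with positive and significant spots. The 31 lower calls became 19 after normexp and at 2-fold, 15 with dim miRNAs left out and 64 with positive and significant spots. With that last mark the number detected rose from 296 to 463 in the gland and from 300 to 431 in the flank. For the changes of these counts with scaling, signal column, background correction and detection the cause was not tested. With the main rule for detection, signal over background limits 4 of the 5 folds to lower bounds.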
